A study of Mus musculus with 18 samples.

Results

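KO line A2 was compared with KO line A5 at 3 stages, in 6 of the 18 polyA RNA libraries of the series, over the 11775 autosomal genes that passed a filter on low counts. Line A2 gave 1 library as epiblast-like cells (EpiLC), 1 as primordial germ cell-like cells (PGCLC) of day 3 and 1 of day 5, and line A5 gave the same 3. Both lines are labelled Esrrb KO and descend from SGET, a mouse embryonic stem cell line of strain B6CBA/129 with reporters for Stella (SG) and Esg1 (ET). Cells were kept in 2i/L, then made into EpiLC with activin A and bFGF on fibronectin and collected unsorted. PGCLC were induced by BMP4 and BMP8a together with LIF, SCF and EGF, and sorted as SG+ETlow. The remaining libraries are 3 of KO line B1, 1 a stage, and 9 of WT cells, 3 a stage. Descriptions name the late stage d6, but the labels give 5 days, so day 5 is used here. A2 is named KO2 in the titles. The labels give a name for each KO line and do not say how the lines were isolated.

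Changes between sister lines of cultured embryonic stem cells can come from gains or losses of whole chromosomes, which such lines acquire in culture. A gene on a chromosome in an extra or missing copy is often transcribed in proportion to its copies, and a gene under strong regulation can depart from that proportion. Gains of chromosomes 8 and 11 are among those known to recur in mouse embryonic stem cells. DNA copy number was not measured in these samples, so a shift of a chromosome below is a shift of its RNA.

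The 6 libraries held 3970427 to 4893302 counts (3032965 to 5286330 over all 18). With 1 library per line and stage there was no test within a stage, and the 3 stages stood in as replicates of the line difference. The p-values rest on the spread of the KO libraries of all 3 lines, B1 included, around their stage and line means. They are thus no measure of the steadiness of A2 against A5 alone, nor of the spread between cultures of a line. Esrrb, the gene named as knocked out (an orphan nuclear receptor of naive pluripotency), held 167, 359 and 631 counts in A2 at EpiLC, day 3 and day 5, against 29, 745 and 600 in A5. The EpiLC library labelled A2 held more Esrrb RNA than any WT EpiLC library, at 39.7 against 20.7 to 33.5 deposited CPM (counts scaled to library size). This goes against its label, though Esrrb RNA was present in every KO library and was low at EpiLC in WT. At days 3 and 5 A2 held 91.1 and 129 deposited CPM, against 565 to 628 in WT. Calls across stages are therefore also given without the EpiLC stage where this is stated. Esrrb did not pass the test across the 3 stages (log2 fold change 0.46 ± 0.71, SE, adjusted p = 0.739 by edgeR's quasi-likelihood test with Benjamini-Hochberg adjustment), and fell in A2 across the PGCLC stages alone (-0.49 ± 0.14, adjusted p = 0.0277).

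The cell identity of the libraries was checked on defining markers. In PGCLC, the germ cell regulators Prdm1, Prdm14 and Tfap2c and the germ cell gene Dppa3 were detected in both lines. Prdm14 stood at 65.4 and 71 CPM (counts scaled to library size, with TMM factors) in A2 at days 3 and 5, against 63.3 and 51.5 CPM in A5. Tfap2c stood at 215 and 154 CPM in A2, against 250 and 168 CPM in A5. In the EpiLC library labelled A2 the formative markers Dnmt3b and Otx2 were at 704 and 14.6 CPM, against 2018 and 53.6 CPM in A5. The other EpiLC markers checked did not fall, with Fgf5 at 89 counts in A2 against 83 in A5 and Pou5f1 at 2819 against 2299. The list of 23 formative epiblast genes summed to 2964 deposited CPM in A2 against 4749 in A5. The EpiLC library labelled A2 was also set apart from that of A5 by the summed level of other cell types' markers, in deposited CPM. Fibroblast and mesenchyme markers (22 genes, 1 of them at 0 in A2 and 5 in A5) summed to 8045 in A2 against 869 in A5, of which fibronectin (Fn1) gave 5464 against 436. Endoderm markers (21 genes, 1 at 0 in A2 and 2 in A5) summed to 4300 in A2 against 864 in A5, and trophoblast markers (17 genes, 2 at 0 in each) to 4640 against 1274. Krt8, which is in both of these lists, gave 486 in A2 against 68.8 in A5. The defining endoderm markers were low in both lines and did not all rise. Gata4 had 9 counts in A2 against 8 in A5, Sox17 5 against 1, Gata6 36 against 5 and Dab2 68 against 81. The fibroblast collagen Col3a1 had 274 counts in this A2 library against 0 in A5, while Thy1 was lower in it (12 counts against 63) and the trophoblast factor Elf5 was at 0 in both. At days 3 and 5 the fibroblast markers summed to 1681 and 2442 in A2 against 1249 and 1215 in A5. The trophoblast markers summed to 2881 and 726 in A2 against 1398 and 1000.0 in A5, and the endoderm markers to 599 and 466 in A2 against 670.2 and 711 in A5. The part of these cells in the results below was not tested. In bulk RNA, fewer cells of a type and less RNA per cell cannot be told apart.

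Genes of chromosomes 11 and 16 were lower in A2 than in A5 at every stage, and genes along part of chromosome 1 were higher. The median log2 ratio of A2 over A5 on chromosome 11 (1061 genes) was -0.48, -0.48 and -0.51 at EpiLC, day 3 and day 5. On chromosome 16 (375 genes) it was -0.37, -0.51 and -0.49. On chromosome 1 (664 genes) it was 0.25, 0.26 and 0.28. The 16 other autosomes lay between -0.04 and 0.11 at all stages, so these 3 chromosomes stood outside the range of the rest in every library pair. The mean of the 3 stage medians corresponds to 0.714 of the A5 level on chromosome 11 and 0.728 on chromosome 16. The shift of chromosome 11 was as large in the EpiLC library labelled A2 as in the PGCLC libraries, and that of chromosome 16 was smaller there.

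**Figure D1:**
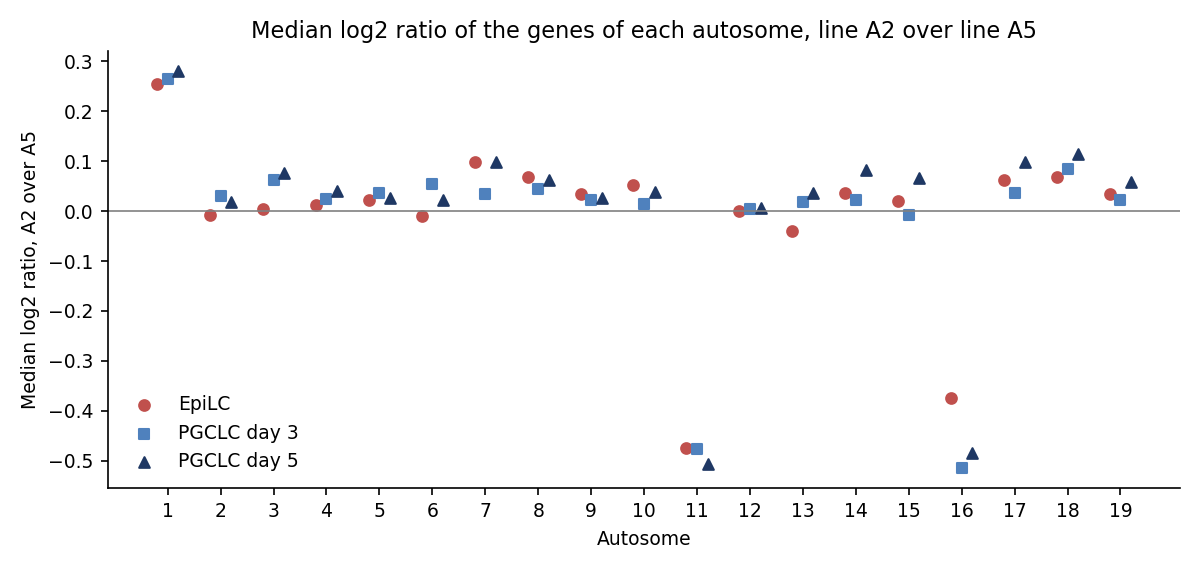
Median log2 ratio of A2 over A5 (vertical axis) over the tested genes of each of the 19 autosomes (horizontal axis), with 1 point for each stage and 1 library of each line behind each point. Chromosomes 11 and 16 sit between -0.51 and -0.37 and chromosome 1 between 0.25 and 0.28, while the other 16 lie between -0.04 and 0.11.

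Set against the mean of the 3 WT libraries of the same stage, the same 3 chromosomes stood apart in A2, while in A5 their medians lay close to WT. A2 over WT was -0.47, -0.43 and -0.45 on chromosome 11 over the 3 stages, -0.46, -0.45 and -0.46 on chromosome 16, and 0.33, 0.29 and 0.31 on chromosome 1. A5 over WT lay between -0.06 and 0.08 on 18 autosomes. Chromosome 8 was below WT in all 3 KO lines over the 3 stages. It was at -0.11, -0.17 and -0.18 in A5, -0.08, -0.12 and -0.12 in A2, and -0.07, -0.14 and -0.15 in B1. Line B1 shared the chromosome 16 shift, with -0.47, -0.44 and -0.41 over WT. Because A2 over A5 and A2 over WT share the A2 libraries, these values are given side by side only. B1 against A5 called 0 genes by edgeR's quasi-likelihood test (600 of 11775 at an unadjusted p under 0.05, of which 227 were on chromosome 16 and all 227 lower), 36 by DESeq2, 27 of them lower on chromosome 16, and 0 by limma.

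The chromosome 1 shift did not run along the whole chromosome. In blocks of 25 tested genes in order of position, 13 of 26 blocks of chromosome 1 had a mean log2 ratio above 0.3, against 40 of 42 blocks below -0.3 on chromosome 11 and 15 of 15 on chromosome 16. The raised blocks formed 1 stretch, chosen here after its values were seen, of 325 genes from Stau2 to Tmem177 (chromosome 1, 16228674 to 119913208, GRCm38). There the median was 0.42, 0.54 and 0.57 at EpiLC, day 3 and day 5, or 1.43 times the A5 level over the stages. The first 25 genes, Mrpl15 to Rdh10, were at 0.04, 0.07 and 0.15. The 314 genes beyond the stretch, Tmem37 to Cr1l (120067377 to 195131586), were at 0.12, 0.00 and 0.01, or 1.03 times the A5 level. Within the stretch 224 of 325 genes (68.9%) were above A5 at all 3 stages, against 71 of 314 (22.6%) beyond it and 2236 of 9675 (23.1%) on the 16 other autosomes.

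**Figure D2:**
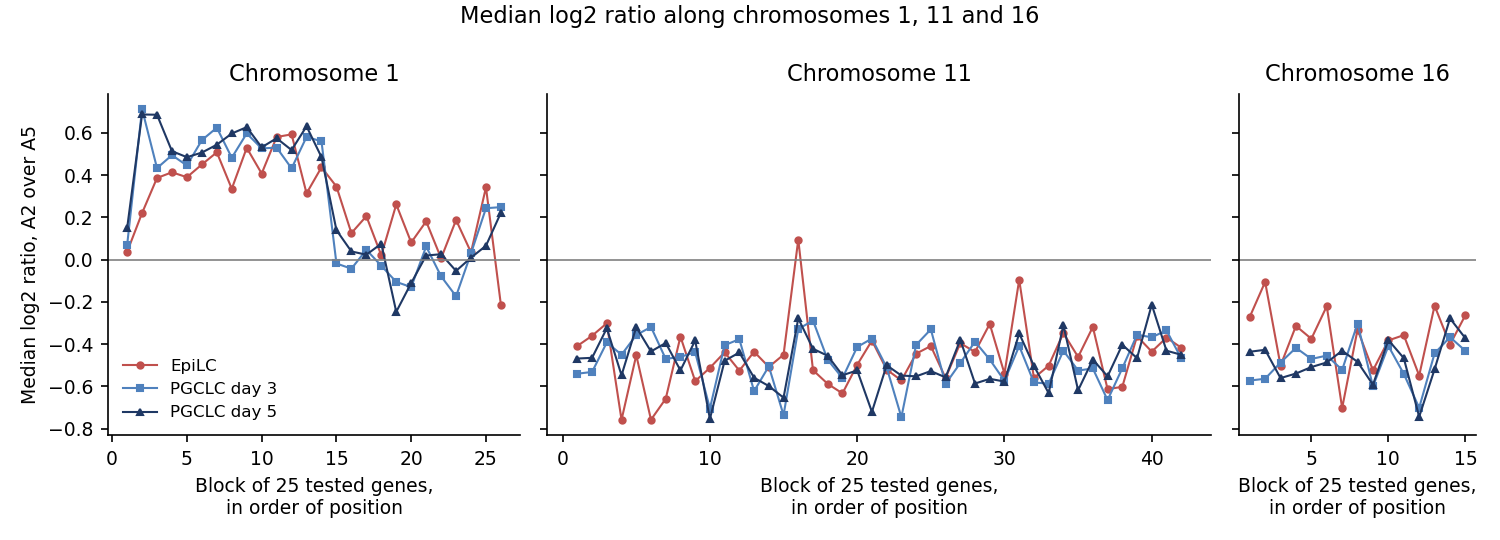
Median log2 ratio of A2 over A5 (vertical axis) in successive blocks of 25 tested genes along chromosomes 1, 11 and 16 (horizontal axis, order of position), 1 line per stage. Chromosome 1 steps down to near 0 after block 14 and starts near 0 in block 1, while the means over the stages stay below 0 in all 42 blocks of chromosome 11 and all 15 of chromosome 16.

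Across the 3 stages 796 of 11775 autosomal genes (6.76%) differed between the lines by edgeR's quasi-likelihood test on the 9 KO libraries with terms for stage and line, at a Benjamini-Hochberg adjusted p under 0.05. A fit of only the 6 libraries of A2 and A5 called 0 (2091 at an unadjusted p under 0.05). Of the 796, 299 (2.54%) were higher and 497 (4.22%) lower in A2. Chromosomes 1, 11 and 16 held 488 of the 796 calls among 2100 of the tested genes. Chromosome 11 gave 4 higher and 279 lower of 1061, chromosome 16 gave 1 higher and 90 lower of 375, and chromosome 1 gave 109 higher and 5 lower of 664. In the raised stretch of chromosome 1 all 97 called genes (29.9% of 325) were higher, while 193 were higher and 5 lower at an unadjusted p under 0.05 and DESeq2 called 107 higher and 0 lower. The 5 lower genes of chromosome 1, Apoa2 and Uap1 among them, all lay beyond that stretch. On the 16 other autosomes 308 of 9675 genes were called (3.18%), 185 higher (1.91%) and 123 lower (1.27%). This split depended on the scaling: with TMM factors from autosomes other than 1, 8, 11 and 16 it was 146 higher and 146 lower.

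Leaving out the EpiLC stage raised the number of calls and kept the pattern. Over the PGCLC stages 2853 of 11621 autosomal genes were called (24.6%), 1249 higher (10.7%) and 1604 lower (13.8%), and 784 of the 791 earlier calls that could be tested were among them. On chromosome 11, 593 of 1056 genes were lower and 12 higher. On chromosome 16, 219 of 370 were lower and 5 higher, and on chromosome 1, 230 of 659 were higher and 30 lower. Elsewhere 1002 were higher and 762 lower of 9536. Without day 3, or without day 5, 0 genes were called by edgeR (1603 and 1732 at an unadjusted p under 0.05), so the calls across stages need both PGCLC stages.

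Most called genes of chromosomes 11 and 16 went with their chromosome. When the median of its chromosome was subtracted from each gene at each stage, 84 autosomal genes (0.713%) differed, 51 higher (0.433%) and 33 lower (0.28%), of which 77 were also called before it. They were 14 of chromosome 1, 15 of chromosome 11, 5 of chromosome 16 and 50 elsewhere. Over the PGCLC stages alone 1914 genes differed beyond their chromosome (16.5%). The shares were 31.3% on chromosome 1 (117 higher and 89 lower), 17.1% on chromosome 11 (86 and 94), 19.7% on chromosome 16 (38 and 35) and 15.3% elsewhere (694 and 761). Taking a running median over the 51 nearest genes in place of the chromosome's left 17 (0.144%), of which 7 were on the 3 chromosomes and 10 elsewhere. Since a smaller set of calls also moves the threshold, both fits were read at the same unadjusted p of 0.00336, the largest p called across stages. At that level 24 of the 283 called genes of chromosome 11 (8.48%) and 8 of the 91 of chromosome 16 (8.79%) still stood out beyond their chromosome, against 260 of 308 (84.4%) on the other autosomes. On chromosome 1, which shifts only in part, the count was 42 of 114 (36.8%) by the chromosome median and 19 of 114 (16.7%) by the running median. The median absolute difference of the called genes of chromosome 11 was 0.69 before and 0.21 after the subtraction, and of chromosome 16 0.68 and 0.22. On the other autosomes it was 0.79 and 0.80. Medians there lay between -0.04 and 0.11, so subtracting them could change little and those genes are no yardstick. The genes of chromosomes 11 and 16 were called with the shift included, so part of their fall was built in.

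Counted over all tested genes rather than called ones, 624 of 1061 genes of chromosome 11 (58.8%) and 218 of 375 of chromosome 16 (58.1%) had the sign of the shift at all 3 stages and a mean within 0.5 log2 units of the chromosome's. The same rule held for 228 of 664 genes of chromosome 1 (34.3%) and 1538 of 9675 elsewhere (15.9%). Without the EpiLC stage the rule asks for the sign at the PGCLC stages only and is easier to meet. It then held for 748 genes of chromosome 11, 275 of 16 and 284 of 1. No matching count for the other autosomes is given, so these higher counts do not show that more genes follow their chromosome. Against the shift at every stage went 29 genes of chromosome 11 (2.73%), 12 of chromosome 16 (3.20%) and 58 of chromosome 1 (8.73%), against 1559 elsewhere (16.1%). On chromosome 11 the shift was there at all expression levels. Genes of chromosome 11 under 17.8 CPM, between 17.8 and 63.5 CPM and above it had log2 ratios (mean of the 3 stage medians) of -0.53, -0.50 and -0.46. Their interquartile range narrowed over these classes, with 0.80, 0.46 and 0.30, and the share called went up with it, with 7.62%, 27.3% and 41.5%. In the raised stretch of chromosome 1 the same mean differed between these classes, with 0.35, 0.52 and 0.58, and the share called was 5.44%, 27.4% and 51.7%.

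The most abundant genes of the 3 chromosomes give the shift at the level of single genes. Nucleolin (Ncl, a nucleolar protein of ribosome production, in the raised stretch of chromosome 1) stood at 4887, 5195 and 4696 CPM in A2 at EpiLC, day 3 and day 5, against 3301, 3073 and 2835 CPM in A5. All 3 A2 libraries lay above all 3 of A5 (log2 fold change 0.69 ± 0.10, adjusted p = 0.0154), and beyond its neighbours 0.15 remained. The ubiquitin ligase gene Trip12, also in the stretch, rose by 0.68 ± 0.11 (adjusted p = 0.0181). Hnrnpu and Parp1, which are as abundant and lie beyond the stretch, were at 0.10 ± 0.10 and -0.07 ± 0.10 and did not pass. On chromosome 11 the importin gene Kpnb1 stood at 1487, 1406 and 1274 CPM in A2, against 2103, 1951 and 1745 CPM in A5, again with no overlap (-0.48 ± 0.08, adjusted p = 0.0188), and 0.01 remained beyond the chromosome. Gnb2l1 (the ribosomal scaffold RACK1) and Ywhae (a 14-3-3 protein) fell by 0.47 and 0.38 on the log2 scale. Npm1, Top2a and Hnrnpab, also among the 6 most abundant, were at -0.60, -0.52 and -0.35 and did not pass (adjusted p = 0.06, 0.0658 and 0.0862). On chromosome 16 the translation factor gene Eif4a2 fell by 0.78 and the transferrin receptor gene Tfrc by 0.60. Eif4g1, Cct8, Usp7 and Gart were at -0.30, -0.42, -0.24 and -0.37 across stages without passing. Over the PGCLC stages alone they passed, at -0.36, -0.29, -0.35 and -0.33 (adjusted p = 0.00925, 0.0226, 0.0135 and 0.016 by edgeR). So did Npm1, Top2a and Hnrnpab of chromosome 11, at -0.36, -0.31 and -0.29 (adjusted p = 0.00997, 0.0185 and 0.0385 by edgeR).

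Subunit genes of large protein complexes, which are spread over many chromosomes, differed between the lines by chromosome. The proteasome, which degrades ubiquitinated proteins, has 6 tested subunit genes on chromosome 11 (Psmb3, Psmb6, Psmc5, Psmd3, Psmd11 and Psmd12), and all 6 fell in A2, with log2 fold changes from -0.73 to -0.45 and a median of -0.61. Of all tested genes of chromosome 11, 26.3% were called lower. Psmd11 (chromosome 11, 80428615 to 80473248) stood at 194, 191 and 194 CPM in A2 against 290, 292 and 285 CPM in A5. Psmb6, a catalytic subunit, stood at 223, 258 and 248 CPM in A2 against 456, 385 and 354 CPM in A5. The groups did not overlap for either gene. Psmd2 of chromosome 16 fell as well (-0.51 ± 0.08, adjusted p = 0.0177). Psmd1 of the raised stretch of chromosome 1 stood at 537, 577 and 512 CPM in A2 against 415, 428 and 422 CPM in A5 and rose (0.36 ± 0.08, adjusted p = 0.0381). The 21 subunit genes elsewhere had a median of -0.05, between -0.35 and 0.13, and 0 were called by edgeR (1 lower at an unadjusted p under 0.05, 0 by DESeq2). Only 3.18% of all tested genes of those autosomes were called, so 0 of 21 is near that share. Over the PGCLC stages alone 1 of these 21 was called higher and 0 lower by edgeR. None of the 29 was called beyond its chromosome by edgeR, across all stages or over the PGCLC stages alone. Of all autosomal genes 0.713% and 16.5% were.

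The cytosolic ribosome and the respiratory chain were split by chromosome less fully. The 5 ribosomal protein genes tested on chromosome 11 had a median of -0.70 and Rpl19 and Rpl26 were called lower, while the 25 on other autosomes had a median of 0.10 and 0 calls (1 higher and 1 lower at an unadjusted p under 0.05, 0 by DESeq2). Rpl7 of chromosome 1 and Rpl35a of chromosome 16 were at 0.51 and -0.61 and did not pass. Ribosomal protein genes have many near-identical pseudogenes, so their counts are uncertain. In the respiratory chain Ndufa10 and Ndufs1 of chromosome 1 rose by 0.58 and 0.55 on the log2 scale and Atp5o of chromosome 16 fell by 0.63, while 25 genes elsewhere had a median of -0.06 and 0 calls (2 higher and 1 lower at an unadjusted p under 0.05, 0 by DESeq2). For both complexes 0 of 25 elsewhere is near the 3.18% called among all tested genes of those autosomes. Without the EpiLC stage 1 of the 7 ribosomal genes on chromosomes 1, 11 and 16 rose and 5 fell, while 3 of the 25 elsewhere rose. Rpl7 and Rpl35a both passed there (adjusted p = 9.64e-05 and 0.0264 by edgeR). Of 9 respiratory chain genes on the 3 chromosomes 4 rose and 1 fell, and of 24 elsewhere 3 rose and 1 fell. Of all 2085 genes tested over these stages on the 3 chromosomes 247 rose and 842 fell. Of all 9536 elsewhere 1002 rose and 762 fell, so 3 of 25 and 3 of 24 rising there are near the background share. Among chaperone genes Hspd1 of chromosome 1 (the mitochondrial chaperonin HSP60) rose by 0.86, and Canx and Cct4 of chromosome 11 fell by 0.60 and 0.56. Of 13 tested genes of chromosome 11 listed as candidates behind its recurrent gain in embryonic stem cells, Foxk2, Nme2 and Trim25 fell and 0 rose, with a median of -0.43, where 26.3% of the genes of the chromosome were lower. In the PGCLC stages alone 8 fell (61.5%), against 56.2% of the chromosome.

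**Figure D3:**
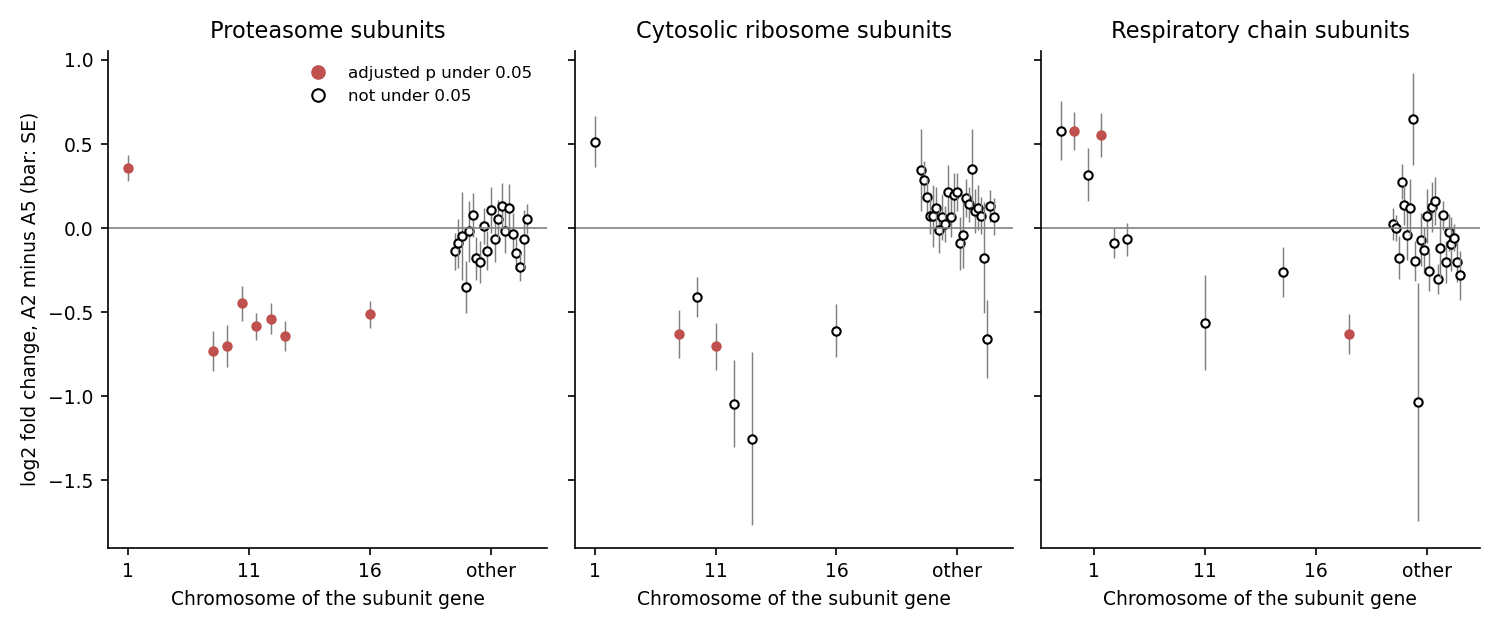
Log2 fold change of A2 minus A5 across stages (vertical axis, bars 1 SE) for each tested subunit gene of 3 complexes, placed by the chromosome of the gene (horizontal axis), with filled points at an adjusted p under 0.05. The 6 proteasome genes of chromosome 11 lie between -0.73 and -0.45 and all are filled, while the 21 on other autosomes lie between -0.35 and 0.13 and none is. Of all tested genes 26.3% were called lower on chromosome 11 and 3.18% were called on the other autosomes.

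Some genes of the 3 chromosomes left the shift. Those named here were also called beyond their chromosome over the PGCLC stages alone. The widest departure was Apoa2, an apolipoprotein gene of chromosome 1 beyond the raised stretch (ENSMUSG00000005681, 171225054 to 171226379). It had 0, 0 and 1 counts in A2 at EpiLC, day 3 and day 5, against 52, 25 and 24 counts in A5. The summed counts of 1 against 101 give a ratio of 0.00973, with an exact 95% counting interval of 0.000244 to 0.0555 that covers counting error only. B1 and WT libraries held Apoa2 at each stage, at 17, 4.65 and 7.78 CPM in B1 and 19.2, 2.91 and 2.46 CPM on average in WT. The EpiLC library labelled A2 lacked Apoa2 as the other libraries of the line did. In the same far part of chromosome 1 Uap1, an enzyme of sugar nucleotide synthesis, fell by 0.53 on the log2 scale.

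On the raised side of chromosome 1 Gli2, a transcription factor of Hedgehog signalling (chromosome 1, 118834132 to 119053619), stood well above its neighbours. It was at 28, 48.8 and 85.9 CPM in A2 against 7, 6.11 and 13.4 CPM in A5, with 9.15, 14 and 10.2 CPM on average in WT. The lines did not overlap, and the log2 fold change of 2.57 ± 0.22 (adjusted p = 0.0125) was still 2.30 beyond the chromosome median (adjusted p = 0.026) and 2.18 beyond the running median (adjusted p = 0.0203). Tns1, which links integrins to actin, stood at 60.3, 58.5 and 79.6 CPM in A2 against 18, 15.1 and 26.4 CPM in A5 (1.78 ± 0.24, adjusted p = 0.0151). Igfbp5, an insulin-like growth factor binding protein gene of the stretch, rose by 3.01. Eya1, a developmental phosphatase and coactivator gene among the first 25 genes of the chromosome and outside the stretch, rose by 1.85. Igfbp5 was low at day 3 in both lines, at 3.32 CPM in A2 and 0.436 CPM in A5.

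On chromosome 11 genes left the shift both ways. Tex19.1, which restrains transposons in germ cells and pluripotent cells (121146143 to 121148319), fell further than its chromosome. It stood at 98.6, 53.9 and 78.1 CPM in A2 against 254, 202 and 236 CPM in A5 (log2 fold change -1.60 ± 0.17, adjusted p = 0.0125, and -1.12 beyond the chromosome, adjusted p = 0.0437). Its near copy Tex19.2 fell by 3.34, and reads may be split between the copies. Sarm1, an enzyme that consumes NAD, stood at 8.61, 1.53 and 3.69 CPM in A2 against 26.4, 10.9 and 21.1 CPM in A5 (-2.20 ± 0.27). Against the direction of the chromosome rose Cobl, an actin nucleator (12236608 to 12464960), at 39, 26.6 and 31.8 CPM in A2 against 9.33, 9.38 and 10.1 CPM in A5 (1.75 ± 0.25, adjusted p = 0.0154). The transcription factor gene Ebf1 rose too, at 12, 29.1 and 54.6 CPM in A2 against 5.37, 17 and 17.7 CPM in A5 (1.18 ± 0.26, adjusted p = 0.0398). WT means of Ebf1 were 5.84, 2.77 and 1.45 CPM, so both KO lines were above WT in PGCLC. Aebp1 and the myelin gene Pmp22 completed the 4 called genes that were higher in A2 on chromosome 11.

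On chromosome 16 Parn, which encodes a nuclease that trims poly(A) tails (13537960 to 13668170), fell by more than its neighbours. It stood at 45.5, 51.6 and 46.8 CPM in A2 against 130, 152 and 128 CPM in A5 and 142, 146 and 134 CPM on average in WT. The A2 libraries varied little and all lay below all A5 libraries (-1.51 ± 0.11, adjusted p = 0.0125, and -1.06 beyond the chromosome, adjusted p = 0.026). B1, which shares the chromosome 16 shift, held 115, 116 and 91.5 CPM. Fetub, a fetuin gene, and Pigx, of glycosylphosphatidylinositol anchor synthesis, fell by 1.73 and 1.36. The only called gene of the chromosome that rose was Fstl1, a secreted glycoprotein gene (37776873 to 37836514). It stood at 223, 157 and 154 CPM in A2 against 149, 66.6 and 58.7 CPM in A5 (1.05 ± 0.17, adjusted p = 0.019). It was 98.1, 34.7 and 14.2 CPM on average in WT, below both lines.

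**Figure D4:**
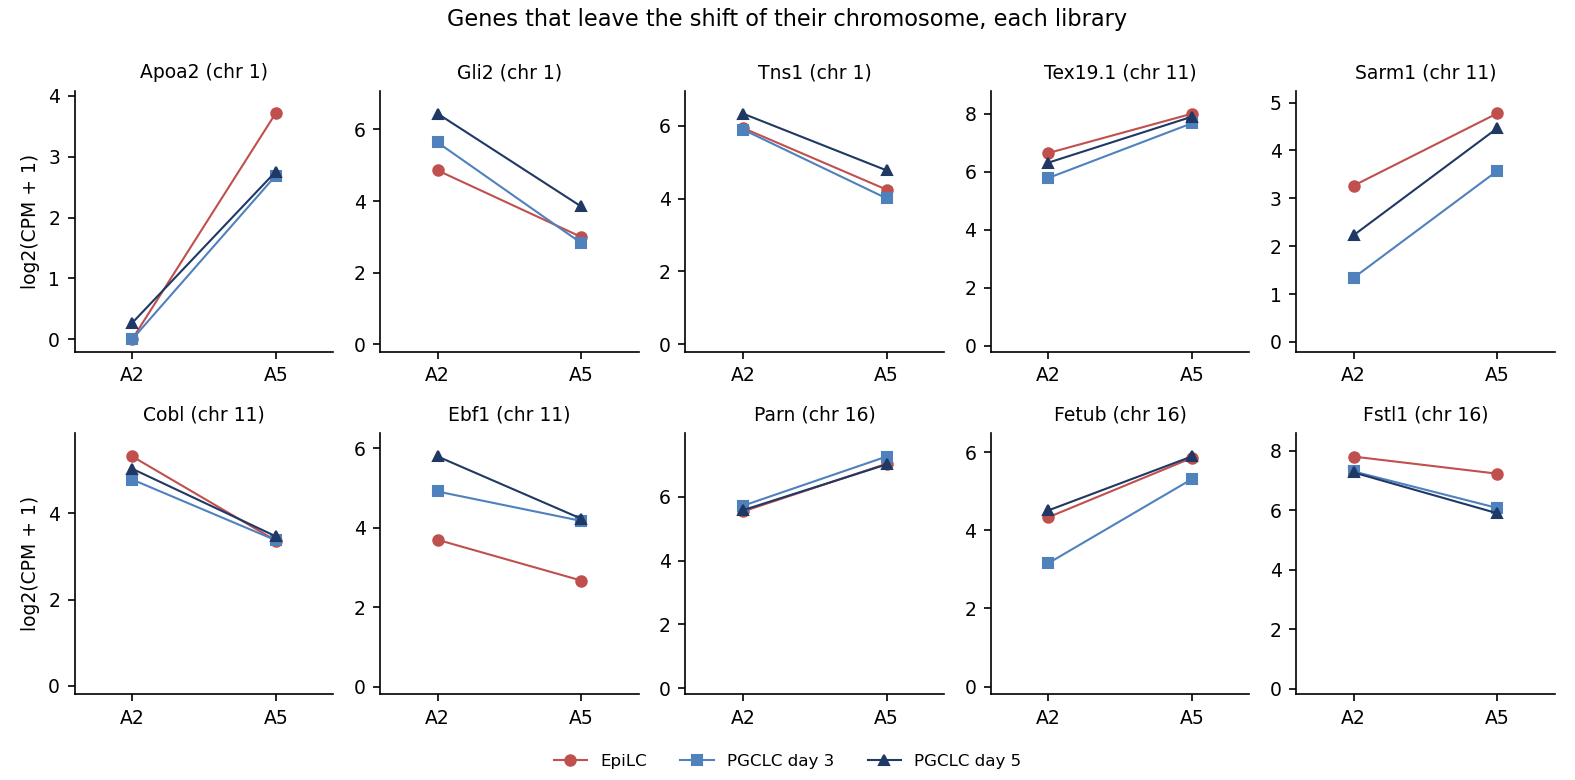
Level in each library as log2(CPM + 1) (vertical axis) of 10 genes of chromosomes 1, 11 and 16 whose line difference departs from that of their chromosome, A2 left and A5 right, with a line for each stage. In every panel the 3 lines slope the same way, from Apoa2 at 0, 0 and 1 counts in A2 to Gli2 at 28 to 85.9 CPM in A2 against 6.11 to 13.4 CPM in A5.

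Genes of the other autosomes differed with no shift of their chromosome. Dkk1, a secreted WNT antagonist (chromosome 19, 30545863 to 30549665), stood at 5.26, 14.1 and 5.74 CPM in A2 against 0.467, 1.75 and 0.24 CPM in A5 (3.48 ± 0.66, adjusted p = 0.0249). It is a low gene, and all 3 A2 libraries lay above all 3 of A5. Grik3, a kainate receptor subunit, stood at 74.2, 104 and 64 CPM in A2 against 24.7, 26.8 and 6.71 CPM in A5 (2.13 ± 0.32, adjusted p = 0.0173). Laptm5, a lysosomal membrane protein gene, rose by 2.95, with 156 CPM in the EpiLC library labelled A2 and 36.5 and 59.5 CPM in the PGCLC libraries against 6.53, 10 and 13.2 CPM in A5. Mras, a Ras-family GTPase gene, Zfp827, Tgfbi (a matrix protein induced by TGF-beta) and Plekhm2 rose by 3.11, 2.17, 2.07 and 1.72. Plxnd1, a semaphorin receptor, was at 3.83, 6.9 and 8.82 CPM in A2 against 16.1, 22.3 and 33.3 CPM in A5 and fell by 1.86 on the log2 scale. Nat8l, Ugt8a and Ttc39c fell by 2.41, 1.81 and 1.59, and the low genes Brsk2, Itih5 and Nlrp14 by 2.97, 2.83 and 2.58. Prss23, Col1a2, Ehd2 and Bmp1 were also called higher, at 92.4, 180, 40.7 and 164 CPM in the EpiLC library labelled A2. At day 3 they were at 0.256, 0.256, 4.34 and 6.39 CPM in A2, and of these only Bmp1 passed the count filter and the test without the EpiLC stage.

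Gene lists chosen for these cells held 47 calls between the lines in all. Of all autosomal genes 6.76% were called, and 23.2% of those on chromosomes 1, 11 and 16, where some list members lie. The total is thus no result about the lists. Interferon-stimulated genes, which act against viruses and are switched on by interferon signalling, had a median log2 fold change of -0.92 over 20 genes, against 0.02 over all autosomal genes. Dtx3l, Ifi35, Oasl2 and Parp9 fell (4 of 20, against 4.22% lower among all), and 0 rose by edgeR (0 at an unadjusted p under 0.05, 0 by DESeq2). Of these 4, 3 were on chromosomes 1, 11 and 16, where 17.8% of all tested genes were lower. The log2 medians of the list were -0.14 at EpiLC, -1.78 at day 3 and -1.45 at day 5. Over the PGCLC stages 12 of 19 were lower (63.2%, against 13.8%) with a median of -1.82, and 11 of them were called beyond their chromosome, against 16.5% of all autosomal genes. The 12 lower genes included 7 of 8 on chromosomes 1, 11 and 16, where 842 of all 2085 tested genes were lower. They included 5 of 11 elsewhere, where 7.99% of all tested genes were lower.

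Oasl2, an antiviral gene of chromosome 5 (114896936 to 114912234), stood at 8.14, 11.2 and 9.23 CPM in A2 at EpiLC, day 3 and day 5, against 15.4, 39.3 and 32.6 CPM in A5 and 5.34, 18.9 and 9.66 CPM on average in WT. A2 lay below A5 at each stage (-1.54 ± 0.22, adjusted p = 0.0154, and -1.57 beyond the chromosome, adjusted p = 0.0437). Parp14, an ADP-ribosyltransferase gene of chromosome 16, stood at 19.6, 24.3 and 26.7 CPM in A2 against 22.4, 106 and 100.4 CPM in A5 and 12.5, 24.6 and 25.1 CPM on average in WT. The PGCLC libraries of A2 were at the WT level and those of A5 above it, with B1 at 54.5 and 54.1 CPM. Across the PGCLC stages Parp14 fell by 2.02 ± 0.13 on the log2 scale (adjusted p = 9.54e-07), against a chromosome 16 median of -0.51. Gbp3 of chromosome 3 and Lgals3bp of chromosome 11 fell by 2.57 and 2.20 over these stages, though reads of Gbp and Oas genes may be shared with near copies. Of the receptors encoded on chromosome 16, Ifnar1 stood at 71.1, 53.7 and 48.8 CPM in A2 against 90.3, 84.9 and 72.4 CPM in A5. It missed the threshold across stages (-0.52 ± 0.13, adjusted p = 0.0524) and fell over the PGCLC stages (adjusted p = 0.00218), with -0.07 left beyond the chromosome across stages. Ifnar2 and Ifngr2 were at 0.63 ± 0.29 and 0.46 ± 0.31 and did not pass. In PGCLC both were called higher beyond the chromosome, by 1.20 and 0.82 (adjusted p = 0.0262 and 0.0307). Which of these values bear on the interferon-stimulated genes was not tested.

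**Figure D5:**
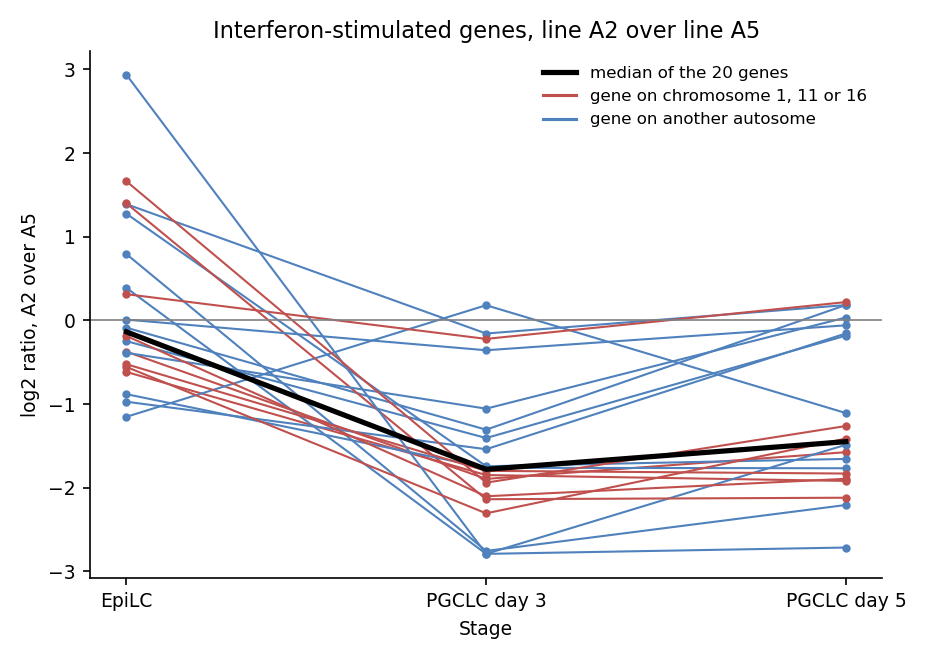
Log2 ratio of A2 over A5 (vertical axis) at each stage (horizontal axis) for 20 interferon-stimulated genes, coloured by whether the gene lies on chromosome 1, 11 or 16, with the median in black. The median is -0.14 at EpiLC, -1.78 at day 3 and -1.45 at day 5.

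Pluripotency and germ cell genes differed in few places across stages. Pou5f1, the core pluripotency factor, stood at 675, 1003 and 1126 CPM in A2 against 536, 721 and 706 CPM in A5 and rose by 0.49 ± 0.11 (adjusted p = 0.0403). L1td1, an RNA-binding protein gene of pluripotent cells, rose by 0.50 and the naive-state gene Dppa4 of chromosome 16 fell. Over the PGCLC stages 4 of 19 naive pluripotency genes rose and 5 fell, against 10.7% higher and 13.8% lower among all autosomal genes. Those that rose were Fgf4, Klf5, Sall4 and Tfcp2l1, the last on chromosome 1. Of those that fell, Dppa2, Dppa4 and Jam2 are on chromosome 16, Pecam1 is on 11 and Esrrb is the targeted gene. None of the 13 germ cell specification genes was called across stages by edgeR (2 lower at an unadjusted p under 0.05, 0 by DESeq2). Itgb3, an integrin used to recognise PGCLC, is on chromosome 11 and stood at 23.5, 15.3 and 15 CPM in A2 against 13.3, 53.7 and 66.4 CPM in A5. A2 was thus higher at EpiLC and lower in PGCLC, where it fell by 2.00 ± 0.19 (adjusted p = 1.89e-05) and by 1.49 beyond the chromosome (adjusted p = 0.000329). Of 17 late germ cell genes Dazl and Tdrd12 fell and 0 rose by edgeR (0 at an unadjusted p under 0.05, 0 by DESeq2), beside 4.22% lower among all autosomal genes. In the PGCLC stages alone 3 fell (17.6%), near the 13.8% of all. Dazl, an RNA-binding protein gene of germ cells on chromosome 17, stood at 13.2, 12.8 and 32.6 CPM in A2 against 26.8, 26.4 and 58.5 CPM in A5 (-0.98 ± 0.21, adjusted p = 0.0346).

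Mesenchyme genes were high at EpiLC in A2. Of 15 tested fibroblast and mesenchyme genes Col1a2, Col5a2 and Tgfbi rose, beside 2.54% of all autosomal genes, and 0 fell by edgeR (0 at an unadjusted p under 0.05, 0 by DESeq2). The median of the list was 1.51 across stages, with 2.23 at EpiLC, 0.19 at day 3 and 0.74 at day 5, beside medians near 0 over all genes. The summed fibroblast markers given above move with this list, since it is the same list. Without the EpiLC stage 4 of 13 rose and 1 fell, against 10.7% and 13.8% of all autosomal genes. At EpiLC alone, 72 autosomal genes, counting those that reached 20 CPM in either library, were 8-fold or more above A5 in the library labelled A2 (0.611%) and 5 were lower (0.0425%). At day 3 these numbers were 0 and 1 (0.00849%), and at day 5 they were 3 (0.0255%) and 1 (0.00849%). Genes far apart at EpiLC and under 1 log2 unit apart at both PGCLC stages included Wnt7b, a WNT ligand, at 93.3 CPM in A2 against 3.97 CPM in A5, and Emp1 at 182 against 11.7 CPM. Smad7, a signalling inhibitor gene, was at 129 CPM in A2 against 6.53 CPM in A5 at EpiLC and also rose over the PGCLC stages, by 0.91. Lower at EpiLC by the same rule were Btbd17, at 4.31 CPM in A2 against 99.8 CPM in A5, and Trp53i11, at 17.9 against 152 CPM. With 1 library each, these differences have no replicate check.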

How the data were processed

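RNA was extracted with PicoPure and libraries were made with a directional polyA kit (NEBNext Ultra II), per the labels' protocols. Trim Galore 0.4.3.1 was used for trimming, and the builds named are mm10 and GRCm38.p4, per the submitters' processing notes. Which aligner, counter, annotation and strand option were used is not given in the sources used here. Values of overlapping genes and of near-identical copies are therefore uncertain. Each library has a deposited table of unnormalized counts by Ensembl gene, which the authors also deposited as CPM. Rows without a gene ID (56, 0.0559% to 0.0828% of the counts) were left out. Gene positions are those of GENCODE M21 (GRCm38), perhaps not the authors' annotation.

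Counts of the 9 KO libraries were fitted in R 4.3.3 with edgeR 4.0.16, with a term for stage, a term for line and the quasi-likelihood test. The fit had 12326 genes past filterByExpr, TMM factors of 0.971 to 1.03, a common dispersion of 0.0365 and 4 residual degrees of freedom. The Benjamini-Hochberg adjustment ran over all 12326 genes, of which only the 11775 autosomal ones are reported. The stage term pairs the lines by stage, as the labels give it. A second fit took the median log2 ratio of the gene's chromosome at each stage as an offset. CPM in the text are TMM-scaled from the counts unless called deposited, and ratios at a stage used a prior count of 2. Alternatives used DESeq2 1.42.0, limma 3.58.1, other scaling, filters, samples and pairing. The fits were tested on simulated data with known changes.

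The genes compared and the gene lists were chosen with earlier results of these data known. Named genes are the 10 highest and 10 lowest called genes of each fit with a mean of at least 5 CPM, the 6 most abundant genes of chromosomes 1, 11 and 16 and up to 4 called genes departing from each chromosome in each direction. They also include up to 8 genes in each direction that stood apart at 1 stage, and up to 4 members of each list. Psmd1, Psmd2, the genes at the ends of the chromosome 1 parts, Fn1, other markers and other called list members were chosen after their values were seen. Some genes that the rule allows are not reported here.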

Additional observations from a re-analysis of the deposited data

Results flagged for a closer look

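Of 7248 autosomal genes that reached 20 CPM in either line at each stage, 12 were 2-fold or more apart between the lines in opposite directions at EpiLC and at both PGCLC stages. Each rests on 1 library per line and stage, and the difference between the stages was not tested. The 12 include 10 genes that were higher in the EpiLC library labelled A2 and lower in both PGCLC libraries of A2. Dsp, the desmosome protein desmoplakin, had log2 ratios of A2 over A5 of 3.35, -1.10 and -1.90 at EpiLC, day 3 and day 5. Its levels were 192, 61.1 and 46.4 CPM in A2 against 18.4, 132 and 174 CPM in A5. Ier3, an immediate early gene, had ratios of 2.57, -1.18 and -1.22, and Aif1l, an actin-binding protein gene, 1.86, -1.41 and -1.52. App, the amyloid precursor gene on chromosome 16, had ratios of 1.22, -1.41 and -2.04, and Bace1, whose product cleaves it, 1.47, -1.07 and -1.53. Slc40a1, the iron exporter gene on chromosome 1, had ratios of 1.54, -1.19 and -1.07. Lasp1 and Wipi1 of chromosome 11, which encode an actin-binding and an autophagy protein, had 1.08, -1.16 and -1.03, and 1.52, -1.65 and -1.33. Rnf24 had 1.09, -1.51 and -1.09, and Tmcc3 1.41, -1.73 and -1.87.

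The other 2 genes turned the opposite way. The linker histone gene H1f0 had ratios of -1.23, 1.11 and 1.04, and Camkv had -1.24, 1.22 and 1.06. H1f0 stood at 31.1, 98.9 and 72.2 CPM in A2 against 73.5, 45.4 and 35 CPM in A5. In the EpiLC library labelled A2 the summed fibroblast, endoderm and trophoblast markers and Esrrb also stood apart, and their part in these ratios was not tested.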

How the results depend on the processing

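The 796 called genes kept their direction, where they could be tested, under other scaling, filters, tools and samples, without 1 stage and with no stage term. Their number did not stay. Called genes, calls beyond the chromosome and calls within lists numbered 796, 84 and 47. Without 1 stage they ranged from 0 to 2853, from 0 to 1914 and from 0 to 158, highest without EpiLC and 0 without day 3 or day 5. Without the EpiLC library labelled A2 alone, a setting added after the data were seen, they were 2665, 1664 and 150. With no replicate block (no stage term) they were 1, 0 and 0, and with only the 6 libraries of A2 and A5 they were 0, 0 and 0 (1350 and 2091 genes at an unadjusted p under 0.05). All 18 libraries gave 3216, 2292 and 164. DESeq2 gave 951, 391 and 80, limma 848, 112 and 47, no filter on low counts 778, 192 and 50, and RLE size factors 790, 84 and 48. The running median gave 17 beyond. TMM factors from autosomes other than 1, 8, 11 and 16 gave 839, and moved the mean of the other autosomes' medians from 0.04 to -0.003. The chromosome 1 median (0.27) was 0.23 in deposited CPM, 0.22 with those factors and 0.29 at 10 CPM or more, within 0.26 to 0.27 without 1 stage. The chromosome 11 median (-0.49) was -0.52 in deposited CPM, -0.53 with those factors and -0.47 with a prior count of 5. At a width of 0.3, 148 genes of chromosome 1 followed it, against 228. Esrrb, at 0.46 across stages, was at -0.49 without EpiLC. Genes 8-fold or more apart (77, 1 and 4 at EpiLC, day 3 and day 5) were 245, 23 and 24 at 4-fold. At days 3 and 5 they were 0 and 2 with a prior count of 5 or at 50 CPM, and 5 and 8 at 5 CPM. The cause of these changes was not tested. Of genes under 17.8 CPM 7.62% were called on chromosome 11.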

Other observations

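Of 32 cell cycle and replication genes 14 rose in A2 over the PGCLC stages (43.8%, against 10.7% of all autosomal genes), 2 fell and 16 were not called, while across all 3 stages Cdk6 rose and Ccne1 fell. Pcna, the sliding clamp of DNA replication, stood at 194, 245 and 212 CPM in A2 at EpiLC, day 3 and day 5, against 252, 155 and 135 CPM in A5. A2 was thus lower at EpiLC and higher in PGCLC (0.65 ± 0.09 over the PGCLC stages, adjusted p = 0.00029 by edgeR). Cdk4 and Cdk6, the cyclin D kinases, rose by 0.62 and 1.04 over these stages. Mcm3, a subunit of the replicative helicase in the raised stretch of chromosome 1, rose by 0.83 over these stages, where the medians of the stretch were 0.54 and 0.57, and across all stages it was 0.17 beyond the running median of its neighbours. Cyclin E1 (Ccne1) stood at 178, 194 and 153 CPM in A2 against 291, 289 and 248 CPM in A5 and fell by 0.64 in PGCLC, and Top2a of chromosome 11 fell by 0.31, with 0.19 beyond the chromosome.

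Of 22 glycolysis genes 7 fell (31.8%, against 13.8% of all autosomal genes) and 0 rose over the PGCLC stages. Of the 7, 5 were on autosomes other than 1, 11 and 16, where 7.99% of all genes fell. Gpi1, which interconverts glucose and fructose phosphates, stood at 645 and 771 CPM in A2 at days 3 and 5 against 952 and 1132 CPM in A5. Across all stages Slc16a3 and Aldoc of chromosome 11 and Ldhb fell. Among 26 imprinted genes Plagl1, a zinc finger gene expressed from the paternal allele, stood at 17, 51.9 and 61.9 CPM in A2 against 5.83, 17 and 9.82 CPM in A5. Nnat stood at 149, 26.3 and 18.1 CPM in A2 against 60.9, 7.64 and 9.34 CPM in A5. Both rose across stages, with A2 above A5 at each stage. The lists of endoderm (14 genes), trophoblast (15), BMP response (13), Nodal and activin response (13), LIF and STAT3 response (17) and dissociation stress (20) genes had 0 calls across stages by edgeR. At an unadjusted p under 0.05 they had 2, 4, 5, 6, 5 and 2 genes higher and 0 lower, and DESeq2 called 0, 2, 2, 5, 3 and 0 higher. Of all 11775 autosomal genes 2847 were at an unadjusted p under 0.05 in either direction, and DESeq2 called 391 higher. Over the PGCLC stages edgeR called 1, 3, 4, 4, 3 and 1 of 14, 15, 13, 12, 17 and 19 genes higher, against 10.7% of all autosomal genes. It called 2, 1, 0, 1, 1 and 3 lower, against 13.8%.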
